A study of Monodelphis domestica and Mus musculus and Sus scrofa with 73 samples.

Results

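The 100 genes described here are the most abundant long genes whose mean level in the embryonic bat limb stayed nearly level from one stage to the next and between the limbs. They were drawn from 27026 genes in the RSEM tables of 16 limb libraries of Carollia perspicillata, a fruit-eating bat with a short tail. For each gene, the level was its CPM, the expected count divided by the library's total and multiplied by 1000000. A gene was called steady when the group means of log2(CPM + 0.5) differed by less than 0.58, or 1.49-fold, in each of 7 comparisons. Of these, 4 set a stage against the one before it (14 against 13, 15 against 14) within a limb, and 3 set the limbs against each other within a stage. Of 12843 genes with a mean length of at least 1000 bases, 7141 met all 7 criteria, and the 100 of these with the highest mean CPM over the 16 libraries were kept. The members were thus selected on their levels and on these 7 differences, which are given below as a description. Lengths of the expressed isoforms were not used to compare groups in that choice, and they are tested.

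The embryos came from field collections in Trinidad, and forelimbs or hind limbs were taken from them. Nothing in the labels names a treatment, a genotype or an age other than the stage. Stages 13, 14 and 15 correspond in the study to the limb ridge, bud and paddle. Each limb has 3 libraries at stage 13, 3 at stage 14 and 2 at stage 15. Of the stage 14 forelimb libraries, 2 carry the term ES and the third only a stage number, and the stage 15 forelimb libraries carry the term LS. All stage 13 and all hind limb libraries carry a stage number only. Whether libraries with these terms were prepared apart from the others is not given. At stage 15 the limb and this difference in labels therefore cannot be told apart. Comparisons with the stage 14 forelimb are affected in part. The labels do not say whether the libraries of a group came from separate embryos, so the p-values measure the spread between these libraries, which may be technical. Nor do they say whether forelimb and hind limb libraries came from the same embryos, and the tests between limbs treat them as independent. The deposited tables of replicate 1 of the stage 13 forelimb and replicate 3 of the stage 13 hind limb carry the same number in their names, whose meaning is not given, and it was not used. In such bulk RNA, fewer cells of a type and less RNA per cell cannot be told apart.

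In growing embryonic tissue a small set of genes supplies a large part of all mRNA. Such sets typically hold genes that every dividing cell uses, for protein synthesis, the cytoskeleton, metabolism and chromatin, together with matrix genes of the mesenchyme. Genes whose mRNA level holds steady across stages are of practical use as references against which the patterning genes of the limb are measured. A gene here is a Trinity component of a de novo transcriptome, and an isoform is a sequence assembled within it. The tables do not pair these identifiers with gene names, so the members are described by identifier, level, length and isoforms, and no role is given to any of them. For the same reason the labelled tissue was not checked against marker genes.

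Library totals lay between 13600741 and 61814821 expected counts (median 22714005). No member had fewer than 6830 counts in any library, so counting error was small for all 100. Chi-square per degree of freedom was at least 18.9 in all 14 within-group pairs of libraries, far above sampling noise. Genes under 300 bases were detected unequally. Between 19.8% and 25.7% of them had a count in 5 libraries, namely the 3 stage 13 hind limb libraries, replicate 3 of the stage 13 forelimb and replicate 3 of the stage 14 hind limb, against 6.36% to 13.6% in the other 11.

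The members were 0.370% of the genes and took 17.6% to 21.3% of all counts of a library, with a median of 19.5%. The mean share was 19.7% ± 1.89 (SD, n = 3) in the stage 13 forelimb, 19.3% ± 0.884 (n = 3) at stage 14 and 19.01% ± 0.435 (n = 2) at stage 15. In the hind limb it was 19.4% ± 0.407 (n = 3), 20.0% ± 0.380 (n = 3) and 19.4% ± 0.316 (n = 2). In the forelimb the ranges of the stages overlapped. In the hind limb all stage 14 libraries, at 19.71% to 20.45%, lay above both stage 15 libraries, at 19.66% and 19.21%, and overlapped stage 13. The lowest and the highest share of all 16 libraries were both in the stage 13 forelimb, in replicate 3 and replicate 1. The 4 most abundant members alone took 4.21% to 6.76% of the counts, with a median of 4.88%, and the 10 most abundant made up 37.1% of the members' summed CPM.

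**Figure D1:**
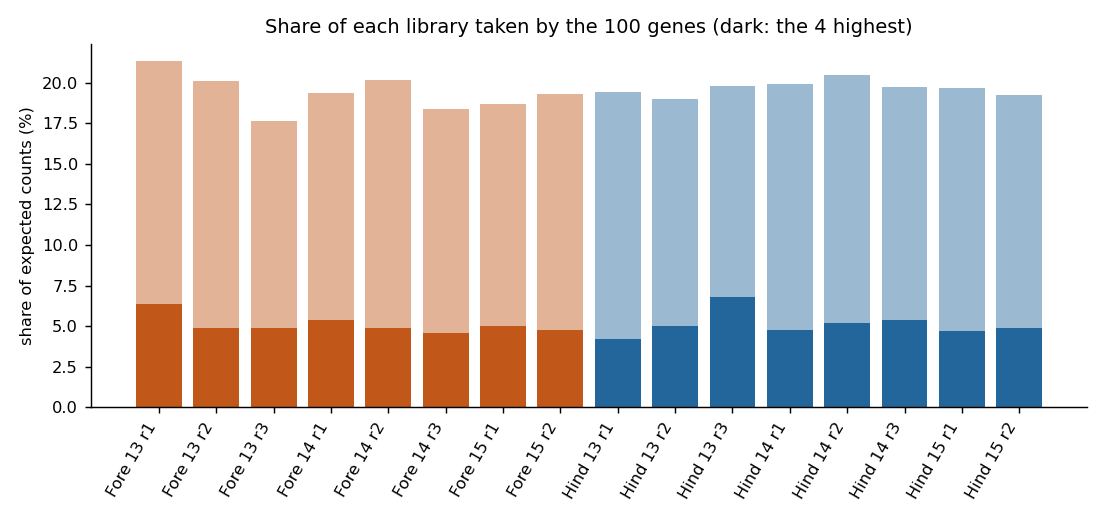
Percent of each library's expected counts taken by the 100 members (full bar) and by the 4 most abundant of them (dark part), for forelimb (orange) and hind limb (blue) libraries named by stage and replicate (r). The full bars lie between 17.6% and 21.3%, and the highest dark part, 6.76%, is in replicate 3 of the stage 13 hind limb.

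The mean CPM of the members ran from 790 to 18150, a 23.0-fold span with a median of 1268. At least 1000 CPM was reached by 75 members, at least 2000 by 23 and at least 5000 by 4. The member at rank 100, comp119823_c1, had 789.9 CPM, and the next gene outside the set, comp114752_c0, had 771.6, so no gap separates the members from the genes that follow. At or above the level of rank 100 there were 120 genes of at least 1000 bases, of which 20 were not steady. All 20 failed at least 1 of the 4 stage criteria, with 14 of them failing stage 14 against 13 in the hind limb, and 2 failed a limb criterion, at stage 15. A further 22 genes as abundant as rank 100 were shorter than 1000 bases, and 18 of these were steady.

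**Figure D2:**
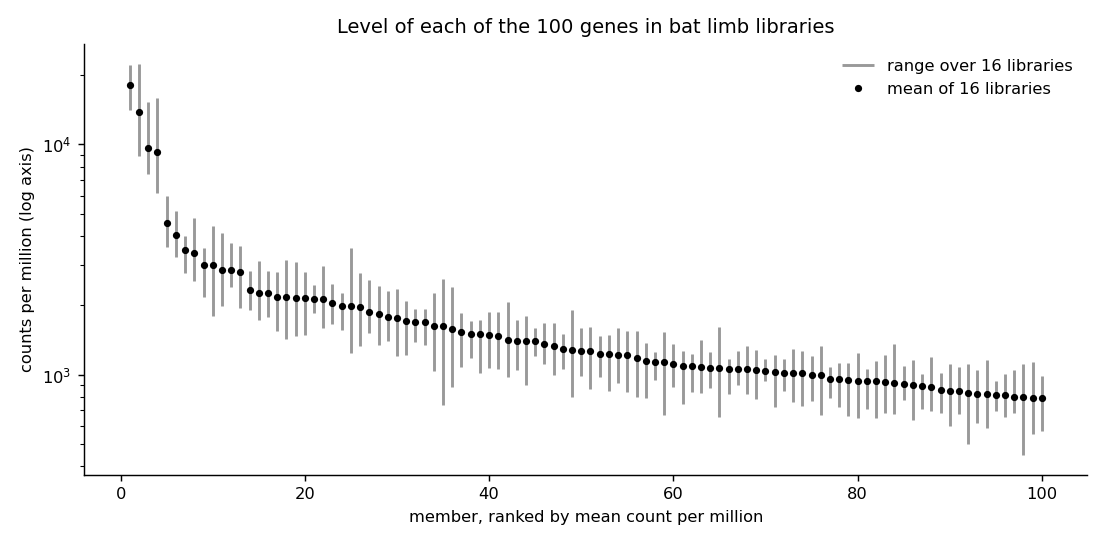
Mean CPM over 16 libraries (points, log axis) and the range over the libraries (lines) of each of the 100 members, ordered by mean. The 4 highest members stand at 9312 to 18150 CPM, and from rank 5 on the means fall gradually from 4539 to 790.

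The most abundant member, comp91944_c0, was assembled as 1 isoform of 2260 bases. Its forelimb libraries held 16962, 18308 and 14997 CPM at stage 13, 16695, 19667 and 16758 at stage 14, and 17249.9 and 20739 at stage 15. Its hind limb libraries held 19542, 17088 and 14062 CPM at stage 13, 18997, 19783 and 17163 at stage 14, and 22049 and 20340.1 at stage 15. The groups overlapped, except that both stage 15 hind limb libraries lay above all other hind limb and all forelimb libraries but replicate 2 of the stage 15 forelimb. The gene was 1.81% of all counts, and its 16 libraries spanned 1.57-fold.

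The other 3 of the 4 highest members had a wider spread. In the forelimb, comp127837_c0, with 1 isoform of 5845 bases, held 20817, 13275 and 13749.6 CPM at stage 13, 15617, 12428 and 13028 at stage 14, and 14135 and 11279 at stage 15. In the hind limb it held 8915, 12705 and 22447 CPM, then 12217, 13268 and 14469, then 10375 and 12204. Its lowest and its highest value thus both came from the stage 13 hind limb, from replicates 1 and 3, and the SD between libraries of a group, pooled over groups on the log2 scale, was 0.37. The same libraries were extreme in comp123664_c0, with 9670 CPM on average, and in comp128889_c0, with 9312. For each of the 3, the highest library was replicate 3 of the stage 13 hind limb, the next was replicate 1 of the stage 13 forelimb and the lowest was replicate 1 of the stage 13 hind limb. The highest and the next are the libraries whose tables carry the same number. Their ranges were 7438 to 15242 CPM for comp123664_c0 and 6176 to 15881 CPM for comp128889_c0, against pooled SDs of 0.31 and 0.37. Below them, comp114311_c0 averaged 4539 CPM (3603 to 5994) and comp111748_c0 averaged 4029 CPM (3255 to 5131).

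Per length, the order of the members changed. The mean deposited FPKM, a count scaled to transcript length in kilobases and to library size, ran from 81.4 to 9169 over the members, a 113-fold span with a median of 609. By FPKM the members stood between rank 4 and rank 1281 among all genes, with a median rank of 160.5, and 66 of them were among the 100 highest genes of at least 1000 bases. The highest FPKM levels were those of comp91944_c0 (9169, rank 4), of comp123664_c0 (5701, rank 12, 1989 bases) and of comp119981_c0 (3651, rank 20, 1147 bases). The last of these had 2990 CPM, which is rank 10 among the members only and not among all genes. By contrast comp128889_c0, with 6712 bases, had an FPKM of 1407 and rank 76. Across the 100 members, Spearman's rho was 0.59 between CPM and FPKM, -0.79 between length and FPKM and -0.06 between length and CPM. Genes share their libraries and FPKM contains length, so these coefficients are a description.

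The mean length of the members ran from 1011 to 11147 bases with a median of 2518, against 2383 for all 12843 genes of at least 1000 bases and 2330 for the 20 that were as abundant and not steady. A length under 1500 bases was found in 17 members and one over 5000 bases in 19. A single isoform was assembled for 50 members (50%), against 37.3% of all long genes and 45% of the 20. Between 10 and 78 isoforms were listed for 14 members (14%), against 12.4% of all long genes. The 78 isoforms belong to comp125838_c0, which held 1523.7 to 2587 CPM. Another gene of the tables carries the same component number for 15 members (15%), against 6.35% of all long genes. For 2 of these 15 members the partner is itself a member. Counts of such sequences, like those of near-identical copies, can be divided between entries, and their levels are uncertain to that extent.

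The criterion of 0.58 left room for differences between groups, and the members used a part of it. For each member, the largest of its 7 differences ranged from 0.08 to 0.57 on the log2 scale, with a median of 0.33, and it exceeded 0.5 in 9 members. The 20 abundant genes that were not steady had a largest difference between 0.59 and 1.08, with a median of 0.66. Differences between limbs were the smaller kind: the median of the largest limb difference was 0.17, against 0.33 for the largest stage difference. At all 3 stages the mean was higher in the forelimb for 9 members and lower for 18.

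The rule used group means only, so the spread between libraries of a group was free to vary. The pooled within-group SD of log2 CPM, with 10 degrees of freedom, was between 0.05 and 0.49 over the members, with a median of 0.18. It was 0.23 in the 20 abundant genes that were not steady and 0.26 over all genes of at least 1000 bases. Among the 1996 long genes between 100 CPM and the level of rank 100 the median was 0.17, and it was 0.16 in the 1666 of these that met the 7 criteria. The members therefore did not have a smaller median spread between libraries than less abundant genes that were well above the count floor.

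RSEM also gives a lower and an upper bound for each FPKM, which describe the estimate within a single library. The width between them on the log2 scale had a median of 0.04 over the members, from 0.009 to 0.08, and the widest belonged to comp125838_c0, the member with the most isoforms. The level of coverage of these bounds is not given in the sources used here, so the width was not compared with the spread between libraries.

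Over the 16 single libraries, 80 of the 100 members stayed within a 2-fold range, and 12 stayed within 0.5 on the log2 scale. Among the 20 abundant genes that were not steady, 2 stayed within a 2-fold range. Those 20 had failed the limits on group means, so the rule itself favoured a wider range in them. The share over all long genes is not given here. The narrowest range was that of comp115661_c0, a gene of 3705 bases with 4 isoforms. Its forelimb libraries held 1063, 1073 and 948 CPM at stage 13, 1099, 1174 and 1084 at stage 14, and 948 and 1064 at stage 15. Its hind limb libraries held 1150.2, 964 and 937 CPM, then 963, 1112 and 1070.5, then 1022 and 999.6. The stage 14 forelimb libraries were above the other forelimb libraries, the hind limb stages overlapped, and the whole range was 1.25-fold.

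The widest range was that of comp91960_c0, the shortest member, with 1 isoform of 1011 bases. Its forelimb libraries held 1532, 1846 and 737 CPM at stage 13, 1657, 1741 and 1350.4 at stage 14, and 1999.6 and 2606 at stage 15. Its hind limb libraries held 1407, 1084 and 774 CPM, then 1906, 1799 and 1105, then 2011 and 2430.0. In both limbs the stage 15 libraries lay above all earlier ones, and the lowest library of each stage 13 and stage 14 group was replicate 3. The range was 3.53-fold and the pooled SD 0.44.

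Extremes gathered in a few libraries. The lowest value of a member came from replicate 3 of the stage 13 forelimb for 27 members, from replicate 2 of the stage 15 forelimb for 16, from replicate 3 of the stage 13 hind limb for 14 and from replicate 1 of the stage 15 forelimb for 11. The highest value came from replicate 1 of the stage 14 hind limb for 18 members and from replicate 2 of the stage 15 forelimb for 14. In replicate 3 of the stage 13 forelimb, the library with the lowest depth, 79 members were below their group mean, with a median deviation of -0.16. That library is also among the 5 in which most short genes were detected, and the part of depth or of short genes in the levels was not tested. These tallies were not made over all long genes, so they are not read as particular to the members.

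Deviations from the group mean moved with gene length in some libraries. Spearman's rho between a member's deviation and its length was 0.46 in replicate 3 of the stage 13 forelimb, 0.48 in replicate 3 of the stage 13 hind limb and 0.40 in replicate 3 of the stage 14 hind limb, so longer members were relatively high there. It was -0.44 in replicate 2 of the stage 13 forelimb, -0.46 in replicate 1 of the stage 13 hind limb and -0.36 in replicate 1 of the stage 14 hind limb. Over 8695 long genes of at least 10 CPM the same 6 coefficients were 0.24, 0.27, 0.16, -0.24, -0.24 and -0.25, of the same sign and smaller size. The first principal axis of the members' within-group deviations carried 50.3% of their variance, and its weights over members had a Pearson correlation of 0.53 with log2 length. Deviations within a group sum to 0, so a high library is always set against a low one.

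Since consecutive stages were compared separately, a member could move by more than the limit from stage 13 to stage 15. In the forelimb 4 members rose and 8 fell by at least 0.58 in group mean, in the hind limb 7 rose and 5 fell, and 84 members did so in neither limb. In both limbs, 3 moved up and 5 moved down by that much. Over all 100 members the sign of the move was the same in both limbs for 86, with Pearson's r of 0.92 and Spearman's rho of 0.92 across genes. The limbs share no library here, but they may share embryos, the rule bounded the difference between them at every stage, and genes are not independent replicates.

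The 2 largest upward moves were those of comp91960_c0, by 0.84 in the forelimb and 1.06 in the hind limb, and of comp111272_c0, by 0.82 and 0.88. The latter, with 1 isoform of 1143 bases, held 886 to 1536 CPM in the stage 13 forelimb, 1333 to 1664 at stage 14, and 2034 and 2404 at stage 15. In its hind limb the values were 919 to 1339, then 1249 to 2128, then 1810.5 and 2362, so that stage 15 lay above stage 13 in both limbs and overlapped stage 14 in the hind limb only.

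Of the downward moves, that of comp124541_c0 was the largest, by -0.91 in the forelimb and -0.77 in the hind limb. This gene of 4979 bases and 4 isoforms held 1454, 1416 and 1902 CPM in the stage 13 forelimb, 1136, 1143 and 1154 at stage 14, and 871 and 803 at stage 15, 3 groups that did not overlap. In the hind limb it held 1489.6, 1560.4 and 1742 CPM, then 1012, 1278 and 1644, then 988 and 881. There stage 15 lay below both earlier stages, which overlapped. Next came comp111225_c0, of 1848 bases and 2 isoforms, by -0.88 in the forelimb and -0.72 in the hind limb. Its stage 15 libraries, at 1040.5 and 1069 CPM in the forelimb and 1364 and 1153 in the hind limb, lay below all stage 13 libraries, at 1784 to 2264 CPM.

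**Figure D3:**
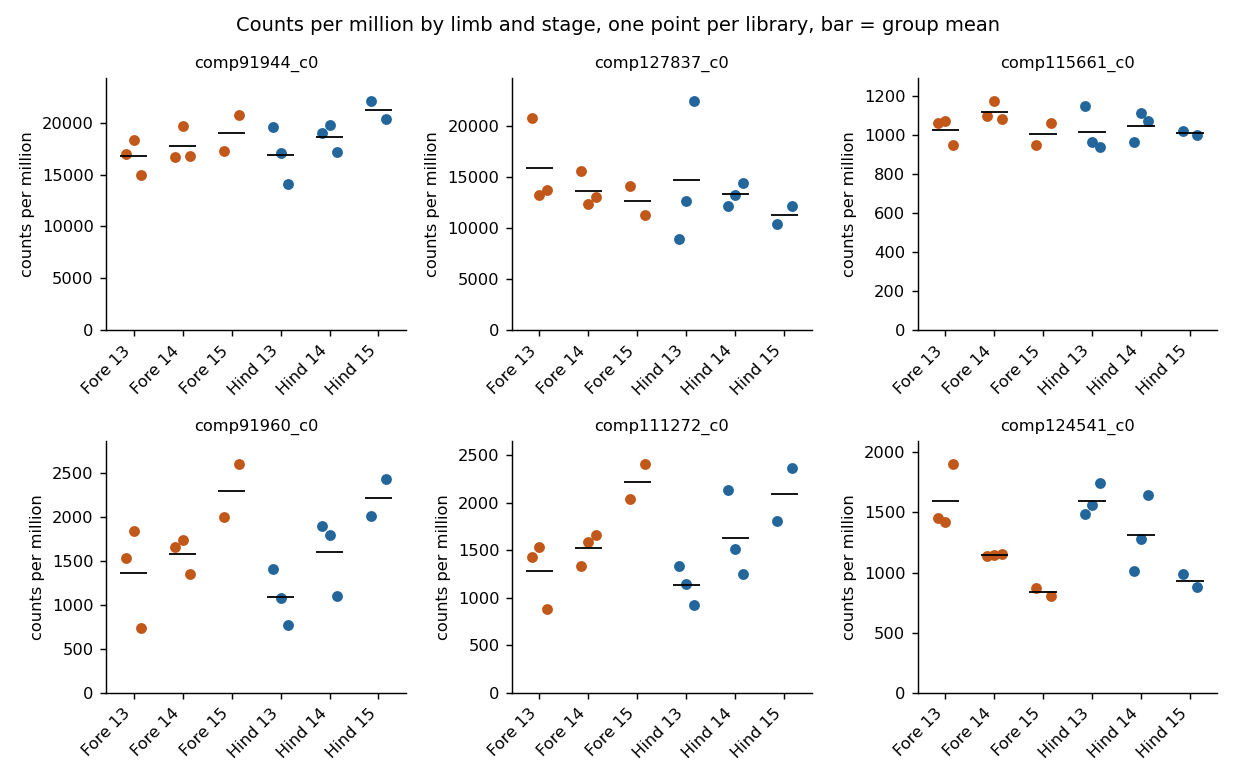
CPM of 6 members in each library (points) by limb and stage, with bars at the group means; orange is forelimb and blue hind limb, and each vertical axis starts at 0. comp115661_c0 stays between 937 and 1174 CPM, comp91960_c0 and comp111272_c0 are highest at stage 15, and comp124541_c0 is lowest there.

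The count test set these differences against the spread between libraries. edgeR's quasi-likelihood test was fitted to all genes for each of the 7 comparisons, with Benjamini-Hochberg adjustment over all genes tested and a threshold of 0.05. Between stages 15 and 14 of the forelimb, 15 members passed, 2 of them higher and 13 lower at stage 15, where 12.8% of all genes tested passed (8.46% higher and 4.34% lower). The rule used this contrast, so nothing is read from the count. Without replicate 1 of the stage 15 forelimb no member passed, nor without replicate 2. Each of these fits sets 1 library against 3 and takes its spread from stage 14 alone, which assumes that the lone library varies as those do. Without replicate 1 of the stage 14 forelimb 2 members passed, and with all libraries DESeq2 passed 34. The shares of all genes in these alternative fits are not given here, so the counts were not set against a background. Of the 4 members named above for their moves from stage 13 to 15, comp124541_c0, comp111225_c0 and comp111272_c0 were among the 15. They were picked on these same levels, so no test of them is given.

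In the other 6 comparisons edgeR passed 0 members. Between stages 14 and 13 of the forelimb 3.03% of all genes passed, and 6 members had an unadjusted p under 0.05, while DESeq2 passed 2. In the hind limb 10.6% of all genes passed between stages 14 and 13, and 10 members had an unadjusted p under 0.05, while DESeq2 passed 7. Without replicate 3 of the stage 14 hind limb, edgeR passed 8. Between stages 15 and 14 of the hind limb 4.97% of all genes passed, with 12 members under an unadjusted 0.05 and 0 passed by DESeq2. Between the limbs 0.0747% of all genes passed at stage 13, 0.155% at stage 14 and 0.823% at stage 15, with 0, 0 and 5 members under an unadjusted 0.05 and 0, 0 and 1 passed by DESeq2. Small group differences were what chose the members, so these counts say nothing more about them. The shares of all genes are those of edgeR at the adjusted threshold. They are no background for the counts at an unadjusted p, by DESeq2 or with a library left out.

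The weighted length of a gene, which RSEM gives for each library as the mean length of its isoforms weighted by their abundance, was not part of the choice between groups. It moves only when the proportions of the isoforms move. It could be tested in 49 of the 100 members, those with at least 2 isoforms and a length that varied, together with 8090 genes in all. The highest weighted length over the lowest among the 16 libraries had a median of 1.03 in the 49 members, against 1.08 in all genes tested. It was above 1.1 in 15 members (30.6%), against 45.6% of all genes tested, and the highest was 1.70.

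With limma on log2 length, all 16 libraries in 1 fit and adjustment over the 8090 genes, 1 member passed the threshold of 0.05 between stages 14 and 13 of the hind limb, where 0.222% of all genes tested passed. This was comp111923_c0, a gene of 6 isoforms at rank 99 with 791 CPM. In the hind limb its weighted length was 4759, 4803 and 4787 bases at stage 13, 4659, 4665 and 4671 at stage 14, and 4771 and 4782 at stage 15. In the forelimb it was 4756, 4703 and 4733 bases at stage 13, 4670.1, 4672 and 4663 at stage 14, and 4760.5 and 4704 at stage 15. The stage 14 libraries of both limbs lay below all libraries of stages 13 and 15. The change from stage 13 to 14 in the hind limb was -0.036 on the log2 scale (SE 0.0050, limma adjusted p = 0.01938, shorter in all 9 pairs of libraries).

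The other changes of comp111923_c0 did not pass. From stage 14 to 15 in the hind limb it was 0.034 (SE 0.0056, limma adjusted p = 0.05902), and in the forelimb it was -0.019 from stage 13 to 14 (SE 0.0050, adjusted p = 0.3368) and 0.020 from stage 14 to 15 (SE 0.0056, adjusted p = 0.2691). The call in the hind limb was lost without replicate 3 of stage 13, without replicate 1, 2 or 3 of stage 14, and with the replicate number as a block. Whether the change differed between the limbs was tested by limma's interaction. For stage 14 against 13 the interaction passed 0 of the 49 members, with 2 under an unadjusted p of 0.05. Among these 2 was comp111923_c0, whose forelimb change minus hind limb change was 0.0169 (SE 0.0071, limma unadjusted p = 0.03691). For stage 15 against 14 the interaction passed 0 members, with 0 under an unadjusted p of 0.05. Of all genes tested, 0.0124% passed in each interaction at the adjusted threshold, which is no background for the unadjusted counts.

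In the 6 other comparisons of weighted length limma passed 0 of the 49 members. At an unadjusted p under 0.05 there were 5 members in the forelimb between stages 14 and 13 (0.0247% of all genes passed), 3 between stages 15 and 14 (0.272%) and 3 in the hind limb between stages 15 and 14 (0.0865%). Between the limbs there were 6 at stage 13 (0.0247%), 5 at stage 14 (0%) and 3 at stage 15 (0.0494%). The shares in brackets are at the adjusted threshold, so they are no background for these unadjusted counts. The share of all genes at an unadjusted p under 0.05 is not given here. The comparison of the limbs at stage 13 rested on 1 library. Without replicate 3 of the stage 13 forelimb, 12 of the 49 members passed, 9 of them longer and 3 shorter in the forelimb, where 7.63% of all genes tested passed.

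That library is 1 of the 5 in which most short genes were detected. Between these 5 libraries and the other 11, the lengths did not overlap in 10 of the 49 members, 7 of which were shorter in the 5 libraries (2.44% of all genes tested) and 3 longer (4%). The split was chosen after the values were seen and is given with no test. The 5 libraries include all of the stage 13 hind limb, so there the stage and this difference between libraries cannot be told apart. Without replicate 3, the stage 13 forelimb libraries had 11.7% and 8.90% of short genes detected, against 24.2% to 25.7% in the hind limb. In the fit that passed 12 members, the limb and this difference between libraries therefore cannot be told apart either.

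The 3 members with the largest such shortening, also picked after their values were seen, show it in both limbs. In comp122789_c0, a gene of 14 isoforms, the weighted length was 2167 to 2729 bases in the 5 libraries and 3261 to 3676 in the other 11, a mean of 69.2% of theirs. Within the stage 13 forelimb it was 3432, 3315 and 2167 bases, and within the stage 14 hind limb 3261, 3301 and 2729, with replicate 3 the short one in both. In comp118961_c0, with only 2 isoforms, it was 3601 to 4420.5 bases against 5015 to 6091 (70.3%), with 5679.9, 5015 and 3601 in the stage 13 forelimb. In comp122615_c0, with 23 isoforms, it was 2719 to 2937 bases against 2951 to 3803 (81.5%).

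The group means of these members' CPM were steady by choice, and the CPM of single libraries varied both less and more than the length. In comp122789_c0 the CPM of the 16 libraries spanned 1.46-fold and the weighted length 1.70-fold, and in comp118961_c0 they spanned 1.49-fold and 1.69-fold. In comp122615_c0 it was the CPM that varied more, by 1.86-fold against 1.40-fold for the length. The member with the most isoforms, comp125838_c0, was also among the 7 shorter ones, with a mean of 90.6% of that in the other libraries, a CPM range of 1.70-fold and a length range of 1.20-fold. In the opposite direction, comp124934_c0, with 23 isoforms, had 4072 to 4458 bases in the 5 libraries and 3621 to 3890.3 in the other 11 (115%), with a CPM range of 1.71-fold and a length range of 1.23-fold.

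**Figure D4:**
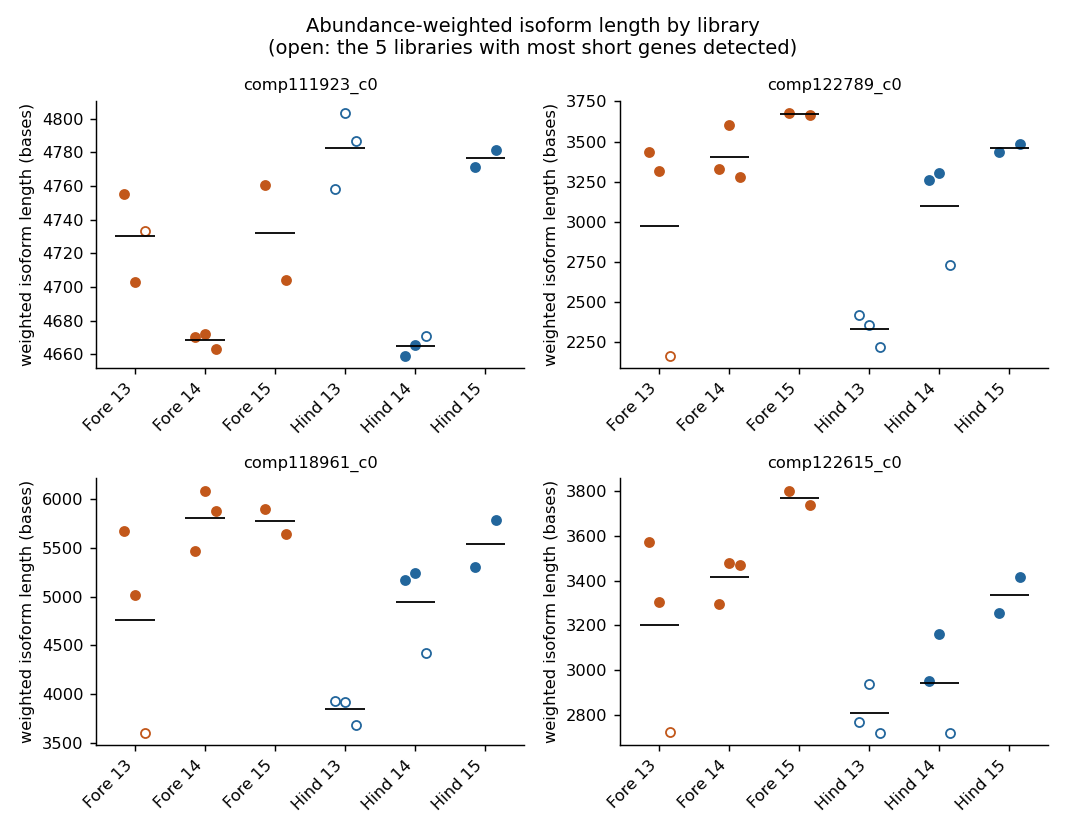
Abundance-weighted isoform length in bases of 4 members in each library (points) by limb and stage, with bars at the group means; orange is forelimb, blue is hind limb, and open points are the 5 libraries in which most genes under 300 bases were detected. The vertical axes do not start at 0. In comp111923_c0 the 6 stage 14 libraries lie lowest, at 4659 to 4672 bases, and in the other 3 members the open points lie lowest.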

How the data were processed

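RNASeq libraries of bat limbs were sequenced by the authors as single-end reads. Per the methods, reads were trimmed, pooled and assembled with Trinity, isoforms matching SwissProt proteins were kept, and RSEM, which uses bowtie, estimated abundances; versions are not given in the sources used here. The deposited expected counts are gene-level RSEM estimates by the authors, with no normalization. The deposited FPKM values and their bounds were normalized by the authors' RSEM run for effective length and depth. Deposited lengths are in bases.

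CPM was computed from the expected counts. Counts were rounded and tested with edgeR 4.0.16 (TMM, robust quasi-likelihood fit, a count of at least 10 in as many libraries as the smaller group, only the 2 groups compared in each fit), and with DESeq2 1.42.0 as an alternative. Log2 weighted length was tested with limma 3.58.1 (robust, variance trend on mean log2 count) in genes with at least 2 isoforms, a count of at least 10 in all libraries and a length that varied by at least 1 base. Standard errors and adjusted p-values are those of these fits. R was version 4.3.3 and Python 3.11.15, with numpy 2.4.6, pandas 2.3.3, matplotlib 3.10.9 and scipy 1.17.1.

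On simulated data for stage 14 against 13 of the forelimb, edgeR recovered 100% of 200 genes changed 4-fold among 14936 genes, with 7.41% of its calls false, and limma recovered 87% of 200 genes shifted by 0.5 in log2 length among 8090 genes, with 2.79% false. On the same simulated counts DESeq2 also recovered 100%, with 12.7% of its calls false. For stage 15 against 14 of the forelimb, 2.91% of edgeR's calls and 5.21% of DESeq2's calls were false. The simulated counts gave every gene the same spread between libraries beyond counting error. Changes as small as those of the members were not simulated.

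Groups came from the labels, which list 73 samples; samples of the other species were not used here. The members and lists were chosen with earlier results of these data known. Named genes were the 6 highest by CPM, the 3 highest by FPKM, those with the narrowest and widest range, rank 100 and the next gene, the one with the most isoforms, those past the length test, and the 2 largest rises and falls from stage 13 to 15; others were chosen after their values were seen, as stated. No sequence is printed because no bat sequence was at hand.

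Where groups share replicate numbers, the deviations of same-numbered libraries did not correlate above 0.1 in every pair in any comparison with 3 pairs, so the numbers were not taken as pairs. In these comparisons the correlations ran from -0.17 to 0.64, and pairing by embryo was not analysed here. The comparisons with stage 15 have 2 pairs. For stage 15 against 14 of the forelimb the correlations were 0.12 and 0.11, both above 0.1. For stage 15 against 14 of the hind limb they were -0.23 in both pairs. Between the limbs at stage 15 the value was 0.21. There each group has 2 libraries, whose deviations mirror each other, so both pairs give the same value by construction. Pairing in these comparisons is not settled by such values. Alternatives are given in the closing section.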

Additional observations from a re-analysis of the deposited data

How the results depend on the processing

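Of 237 alternative values for 19 results, 206 stayed within 1.5 times the count or 1 SD of the share. The 206 include alternatives of 0 for results in which 0 members passed, which counted as unchanged. In the count tests the choice of the members favoured such values, so the 206 are no measure of stability. With edgeR, the members passing between stages 15 and 14 of the forelimb (15) became 28 with no count filter and 4 with all 16 libraries in 1 fit, and DESeq2 passed 34; with each library left out they ranged from 0 to 17. DESeq2 passed 2 for stage 14 against 13 of the forelimb, 7 for the same stages of the hind limb and 1 between the limbs at stage 15. No count filter passed 1 and the fit of all 16 libraries 1 for stage 14 against 13 of the hind limb, and no count filter passed 1 between the limbs at stage 15. With libraries left out the counts ranged from 0 to 8 for stage 14 against 13 of the hind limb, and from 0 to 1 for stage 15 against 14 of the hind limb and between the limbs at stages 13 and 15. In weighted length, the member passing for stage 14 against 13 of the hind limb gave 0 to 1 with libraries left out, and the limbs at stage 13 gave 0 to 12. Stage 15 against 14 of the hind limb passed 1 with a count of at least 100 in all libraries and 1 with lengths in bases. The cause was not tested. Shares of all genes in these alternative fits are not set beside the counts of members, so the counts have no background.

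The replicate number as a block was fitted although the numbers were not taken as pairs. With it 42 members passed by count for stage 15 against 14 of the forelimb. By count, 2 passed for stage 14 against 13 and 1 for stage 15 against 14 of the hind limb. By length, 0 passed for stage 14 against 13 of the hind limb. The block moved no other count of members. The shares of all genes passing with the block are not given here, so these counts have no background.

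A steadiness limit of 0.4 kept 66 of the 100 members and a limit of 0.8 kept 87, ranking by FPKM kept 72, and leaving out a library kept 91 to 100. The members' share of counts was 21.0% of the counts of genes of at least 1000 bases and 23.9% of their FPKM, and 19.4% to 19.7% with a library left out. The number within a 2-fold range was 72 with TMM factors, 76 with FPKM and 80 to 84 with a library left out.

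The percentages of all genes passing depend on the tool: DESeq2 passed 1244 genes against 444 with edgeR for stage 14 against 13 of the forelimb, 2587 against 1596 and 1366 against 761 in the hind limb, and 127, 176 and 202 against 11, 23 and 122 between the limbs.

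Counting error is small for the members, while other effects of depth on their levels were not tested. Stage 15 has 2 libraries per limb, so leaving 1 out leaves a lone library whose spread is assumed to be that of the other libraries in the fit. Lengths depend on how RSEM divides reads among isoforms, and 15 members share their component number with another gene. Identity, function and sequence of the members were not analysed here.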
